A study of Mus musculus with 42 samples.

Results

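The 9 genes of GABA synthesis, GABA transport and interneuron identity followed here through the series are Gad1, Gad2, Slc32a1, Calb1, Calb2, Sst, Npy, Reln and Erbb4. They are 9 of the 52636 genes counted in each of 9 neuronal culture libraries. They were chosen on expression values measured in these same cultures, so their levels and differences are given as a description, with no test. The cultures were compared over 3 genotypes with 3 libraries each. Euploid mice carry the normal chromosome set. Ts65Dn mice carry an extra chromosome made of distal chromosome 16 and proximal chromosome 17 and serve as a model of Down syndrome, and Ts65Dn;Brwd1+/- mice carry the same trisomy with 1 copy of the chromatin reader gene Brwd1 disrupted (the repro5 allele), which should leave as many intact copies as in euploid. The study asked what this return of Brwd1 copy number does to a trisomic brain. All genotypes shared a mixed DBA/2J x B6EiC3Sn/J background and came from Ts65Dn females mated with heterozygous Brwd1 males. The cultures were grown without further treatment of interest from embryonic day 16 (E16) forebrain, given as cortices in the methods, with an agent against dividing glia, and are labelled as pooled male and female. Chromatin was measured in hippocampus of adult male mice. Binding of SMARCA2/4, the ATPases of the BAF remodelling complex, was measured at 6 to 8 weeks of age. Those samples pooled 2 animals each, with 4 samples per genotype. Open chromatin was measured by ATAC-seq in NeuN+ sorted neuronal nuclei with 3 samples per genotype, labelled adult without an age in weeks. The RNA thus comes from embryonic cells kept in culture, and the chromatin from adult tissue. For each chromatin measure, 1 peak list per genotype was used.

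GABA is the main inhibitory transmitter of the forebrain. It is made from glutamate by the glutamate decarboxylases GAD67 (Gad1) and GAD65 (Gad2), and is loaded into synaptic vesicles by the transporter VGAT (Slc32a1). Cortical interneurons arise in the ganglionic eminences, migrate tangentially into the cortex, and are sorted into subtypes by the calcium-binding proteins and peptides they make. Calbindin (Calb1), calretinin (Calb2), somatostatin (Sst), neuropeptide Y (Npy) and reelin (Reln) mark overlapping sets of these cells, and ERBB4 is the neuregulin receptor that interneurons carry. Several of the markers are also made outside interneurons, calbindin in some projection neurons and reelin in Cajal-Retzius cells.

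Total counts in genes lay between 17270070 and 25892802 per library, so each of the 9 genes rested on 75 to 7065 counts in every library. Levels are given as CPM, the count over the library total after scaling between libraries. Brwd1 stood at a mean of 89.4 CPM in euploid, 127 in Ts65Dn and 139 in the libraries labelled Ts65Dn;Brwd1+/-. In the last it did not show the fall that the label implies (log2 fold change 0.13 against Ts65Dn, edgeR quasi-likelihood test, adjusted p = 0.186). Counts of the whole gene do not separate RNA of the disrupted allele from that of intact copies, so they do not settle the genotype. The study reported the return of Brwd1 level by qPCR in embryonic forebrain, with a separate primer pair. The RNA of the inactive X chromosome, Xist, was between 1409 and 1982 CPM in these 3 libraries and at most 1.12 CPM in the other 6, while summed Y-linked genes were at most 0.149 CPM in these 3 and at least 194 CPM in the other 6. Sex and every comparison with the libraries labelled Ts65Dn;Brwd1+/- therefore cannot be told apart. In bulk RNA, fewer cells of a type and less RNA per cell cannot be told apart either. Whether the 3 libraries of a genotype came from separate litters is not stated, so p-values measure only the spread between these samples, which may be technical. Ts65Dn replicate 3 had the lowest level of 8 of the 9 genes among all libraries, and spread between replicates was widest in Ts65Dn (biological coefficient of variation 0.162, against 0.100 among euploid libraries and 0.0846 among those labelled Ts65Dn;Brwd1+/-).

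Gad1 and Gad2, the GABA-synthesising enzymes, were lower in all Ts65Dn cultures than in any other culture. Gad1 (ENSMUSG00000070880, GRCm38 chr2:70553072-70602014, plus strand) stood at 186, 156 and 191 CPM in the euploid libraries, at 72.3, 59.7 and 35.1 CPM in the Ts65Dn libraries and at 242, 256 and 264 CPM in the libraries labelled Ts65Dn;Brwd1+/-. The 3 genotypes did not overlap. Ts65Dn stood at 31.3% of the euploid mean, a log2 fold change of -1.68 (SE 0.21), and the difference between the trisomic genotypes (Ts65Dn;Brwd1+/- minus Ts65Dn) was 2.19 (SE 0.22). Gad2 (ENSMUSG00000026787, chr2:22622205-22693874, plus strand), whose enzyme sits mainly at nerve terminals, stood at 105, 79.2 and 92.1 CPM in euploid, 30.9, 27.3 and 16.1 CPM in Ts65Dn and 99.2, 104 and 106 CPM in the libraries labelled Ts65Dn;Brwd1+/-. Here the euploid libraries overlapped those labelled Ts65Dn;Brwd1+/-, and the Ts65Dn libraries lay below both, with log2 fold changes of -1.89 (SE 0.20) and 2.06 (SE 0.20). The ratio of Gad2 to Gad1 CPM was 0.481 to 0.562 in euploid, 0.428 to 0.458 in Ts65Dn and 0.403 to 0.410 in the libraries labelled Ts65Dn;Brwd1+/-, 3 ranges that did not overlap.

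An open-chromatin peak in the Gad1 gene body appeared in the lists of both trisomic genotypes and not in the euploid list. It held no annotated exon base and its centre lay 26249 bp (Ts65Dn) or 26266 bp (Ts65Dn;Brwd1+/-) from the nearest annotated transcript start, with a fold enrichment of 4.04 and 2.92. The interval common to both peaks, GRCm38 chr2:70592506-70592780 on the plus strand, is printed because it is the only open site named for a GABA-synthesis gene. None of 6 short motifs searched (listed further on) was in it.
Gad1 gene-body interval: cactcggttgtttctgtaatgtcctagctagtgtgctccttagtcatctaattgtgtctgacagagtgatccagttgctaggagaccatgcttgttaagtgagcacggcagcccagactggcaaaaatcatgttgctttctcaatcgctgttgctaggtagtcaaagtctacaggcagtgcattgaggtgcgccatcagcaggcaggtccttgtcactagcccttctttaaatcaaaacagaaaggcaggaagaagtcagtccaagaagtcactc

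Slc32a1 (ENSMUSG00000037771, chr2:158610767-158615748, plus strand), the vesicular GABA transporter, stood at 120, 133 and 117 CPM in euploid, 45.6, 42.6 and 22.6 CPM in Ts65Dn, and 174, 156 and 164 CPM in the libraries labelled Ts65Dn;Brwd1+/-. As for Gad1, the 3 genotypes formed separate ranges with Ts65Dn lowest. The log2 fold changes were -1.74 (SE 0.21) for Ts65Dn against euploid, 2.16 (SE 0.21) between the trisomic genotypes, and 0.41 (SE 0.20) for Ts65Dn;Brwd1+/- against euploid. No peak in any of the 6 lists named Slc32a1. The one open site within 10000 bp of the gene, with its centre 14223 to 14339 bp from the start in the 3 ATAC lists, was the promoter peak of the neighbouring gene Actr5.

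Of the calcium-binding proteins among the 9 genes, calretinin differed more than calbindin in both comparisons with Ts65Dn. Calb2 (ENSMUSG00000003657, chr8:110137502-110168210, minus strand) stood at 53.7, 52.3 and 57.9 CPM in euploid, 13.8, 10.8 and 8.03 CPM in Ts65Dn, and 60.2, 63.0 and 64.7 CPM in the libraries labelled Ts65Dn;Brwd1+/-. Its Ts65Dn mean was 19.9% of the euploid mean, the lowest share among the 9 genes, with a log2 fold change of -2.33 (SE 0.16), followed by 2.52 (SE 0.16) between the trisomic genotypes. Calb1 (ENSMUSG00000028222, chr4:15881264-15908064, plus strand) stood at 32.6, 23.6 and 25.9 CPM in euploid, 12.4, 9.68 and 3.31 CPM in Ts65Dn, and 19.9, 17.6 and 15.0 CPM in the libraries labelled Ts65Dn;Brwd1+/-. Calbindin was the gene of the 9 that varied most among the Ts65Dn libraries (SD 55.3% of the mean) and the only one with every euploid library above those labelled Ts65Dn;Brwd1+/- (log2 fold change -0.64, SE 0.33). Its differences were -1.69 (SE 0.35) for Ts65Dn against euploid and 1.04 (SE 0.35) between the trisomic genotypes, the second resting strongly on 1 library, since it was 0.65 without Ts65Dn replicate 3. The ratio of Calb2 to Calb1 CPM was 1.65 to 2.23 in euploid, 1.11 to 2.43 in Ts65Dn and 3.03 to 4.30 in the libraries labelled Ts65Dn;Brwd1+/-, so that the last lay above the other 2 genotypes and those overlapped.

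Sst (ENSMUSG00000004366, chr16:23889573-23890958, minus strand), which lies outside the distal part of chromosome 16 that is triplicated, encodes the peptide of dendrite-targeting interneurons. It stood at 51.5, 51.3 and 56.0 CPM in euploid, 20.9, 19.9 and 12.1 CPM in Ts65Dn, and 74.6, 75.1 and 84.4 CPM in the libraries labelled Ts65Dn;Brwd1+/-. These ranges were separate, with log2 fold changes of -1.59 (SE 0.17), 2.15 (SE 0.17) and 0.56 (SE 0.16) for Ts65Dn against euploid, Ts65Dn;Brwd1+/- against Ts65Dn and Ts65Dn;Brwd1+/- against euploid. The RefSeq window of Sst, 250 bases before to 50 after the start, holds the cyclic-AMP response element TGACGTCA, a palindrome bound by the factor CREB, which 1.79% of the 32851 promoter windows in the table hold on either strand. It lies from base -48 to -41 before the start, at GRCm38 chr16:23890874-23890903 on the minus strand with its flanks, and is in capitals below, shown because it is a well-known regulatory element of this gene. A further annotated start lies upstream, so these bases are exonic in a longer transcript.
Sst element: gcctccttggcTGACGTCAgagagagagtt

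No peak named Sst, but both trisomic ATAC lists held an intergenic peak with its centre 9294 bp (Ts65Dn) or 9312 bp (Ts65Dn;Brwd1+/-) from the nearest Sst start, with fold enrichments of 4.20 and 3.15, and the euploid list held none within 10000 bp of the gene.

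Npy (ENSMUSG00000029819, chr6:49822710-49829507, plus strand), a peptide of several interneuron subtypes, stood at 14.03, 12.33 and 16.03 CPM in euploid, 8.25, 7.90 and 6.13 CPM in Ts65Dn, and 25.9, 27.3 and 31.9 CPM in the libraries labelled Ts65Dn;Brwd1+/-. Its Ts65Dn libraries were nearer to euploid than those of the other 7 genes that were lower, at 52.6% of the euploid mean (log2 fold change -0.93, SE 0.14). Between the trisomic genotypes it differed by 1.94 (SE 0.14), which placed all libraries labelled Ts65Dn;Brwd1+/- above euploid by 1.01 (SE 0.13), the largest excess over euploid among the 9 genes. In the Ts65Dn ATAC list alone, a peak at chr6:49822404-49822796 lay on the Npy start, with a fold enrichment of 2.92 (q-value 6.5e-05). This was a weak peak, since 4.83% of the peaks of that list had a lower fold enrichment, and whether a weaker signal lies there in the other genotypes was not tested. The 250 bases before the Npy start, GRCm38 chr6:49822460-49822709 on the plus strand, lie within that peak and hold no annotated exon. Capitals mark ATTGG, which is CCAAT on the other strand, and GGGCGG.
Npy upstream: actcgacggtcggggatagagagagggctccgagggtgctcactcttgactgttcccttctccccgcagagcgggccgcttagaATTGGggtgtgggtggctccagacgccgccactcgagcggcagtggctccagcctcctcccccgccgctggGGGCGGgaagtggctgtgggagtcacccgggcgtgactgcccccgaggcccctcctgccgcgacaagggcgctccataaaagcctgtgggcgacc

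Reln (ENSMUSG00000042453, chr5:21884454-22344702, minus strand), a secreted glycoprotein that guides neuronal positioning, stood at 173, 158 and 156 CPM in euploid, 66.5, 68.2 and 34.9 CPM in Ts65Dn, and 168, 160 and 144 CPM in the libraries labelled Ts65Dn;Brwd1+/-. The Ts65Dn libraries lay below all others and the remaining genotypes overlapped. The log2 fold changes were -1.52 (SE 0.21), 1.48 (SE 0.21) and -0.04 (SE 0.20), the last the smallest difference from euploid among the 9 genes. Reln was 1 of 2 members with an open site in all 3 ATAC lists, in an intron, at fold enrichments of 4.71, 5.48 and 3.94 for euploid, Ts65Dn and Ts65Dn;Brwd1+/-, with centres 37397, 37405 and 37420 bp from the nearest start. The interval common to the 3 peaks, GRCm38 chr5:22307172-22307380 on the minus strand, is printed as the open site of Reln that did not depend on the list, and holds none of the 6 motifs.
Reln intronic interval: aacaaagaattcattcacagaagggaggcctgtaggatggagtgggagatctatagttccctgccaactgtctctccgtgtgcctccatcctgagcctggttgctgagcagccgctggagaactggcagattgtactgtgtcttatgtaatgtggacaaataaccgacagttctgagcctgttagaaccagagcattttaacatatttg

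The window before the Reln start, in contrast, is among the GC-richest of the members (80.7% GC, against 50.3 to 68.0% in the other 6 windows and a median of 52.7% over the table). Its 250 bases before the start, GRCm38 chr5:22344706-22344955 on the minus strand, hold GGGCGG, the core of the GC box bound by SP1, 6 times. They are shown because 35.7% of all windows hold that motif at least once and 3 of the 7 member windows do. No ATAC peak named this start in any genotype.
Reln upstream: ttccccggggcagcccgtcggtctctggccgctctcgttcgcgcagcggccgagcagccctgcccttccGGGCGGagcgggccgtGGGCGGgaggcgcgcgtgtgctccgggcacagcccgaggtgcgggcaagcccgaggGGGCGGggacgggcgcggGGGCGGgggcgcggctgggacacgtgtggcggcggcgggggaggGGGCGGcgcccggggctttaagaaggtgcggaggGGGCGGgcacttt

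Erbb4 (ENSMUSG00000062209, chr1:68032186-69108059, minus strand) did not share the pattern. It stood at 91.3, 61.6 and 73.9 CPM in euploid, 76.7, 80.0 and 84.7 CPM in Ts65Dn, and 113, 118 and 109 CPM in the libraries labelled Ts65Dn;Brwd1+/-. Euploid and Ts65Dn overlapped (log2 fold change 0.09, SE 0.12, between -0.04 and 0.25 over 17 other settings that scale to all genes), and the libraries labelled Ts65Dn;Brwd1+/- lay above both, by 0.49 (SE 0.12) over Ts65Dn and 0.58 (SE 0.12) over euploid. It was also the gene of the 9 that varied least among the Ts65Dn libraries (SD 5.01% of the mean), whereas in euploid its SD was 19.7% of the mean. The contrast with the other 8 genes is part of how the genes were chosen and was not tested.

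**Figure D1:**
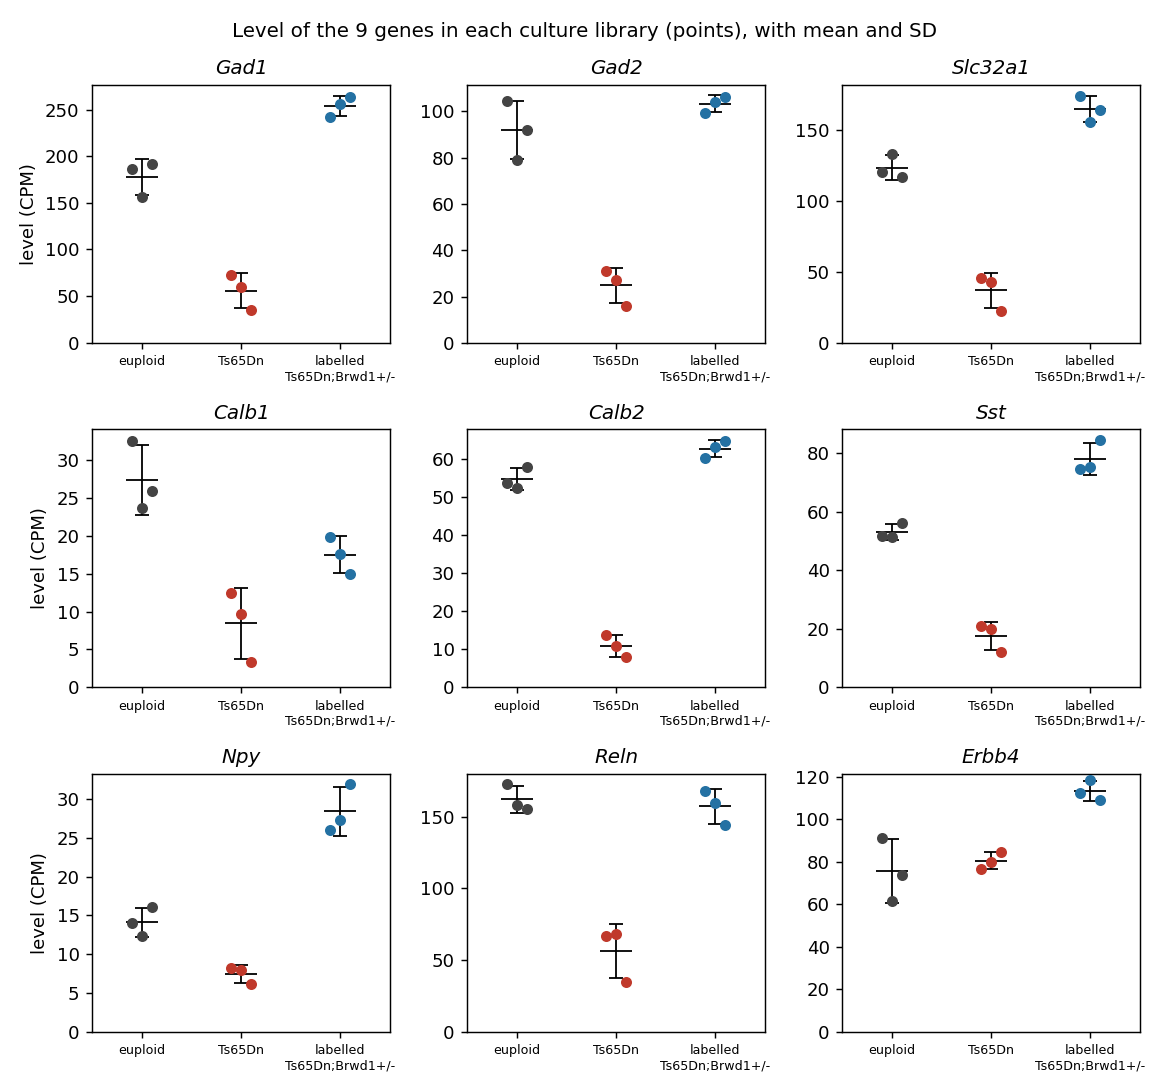
Level of each of the 9 genes (CPM, vertical axes from 0) in the 3 culture libraries of each genotype (points, replicates 1 to 3 from left to right), with the mean (horizontal line) and SD (error bar). Ts65Dn is the lowest group for 8 genes, Calb1 is the only gene for which the libraries labelled Ts65Dn;Brwd1+/- lie wholly below euploid, and Erbb4 is as high in Ts65Dn as in euploid.

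Counted together, 8 of the 9 genes were lower in every Ts65Dn library than in every euploid library and none was higher. Of all 17173 genes that passed the filter on low counts, 25.5% were lower in this way and 31.2% higher. Between the trisomic genotypes, 9 of 9 were higher in the libraries labelled Ts65Dn;Brwd1+/-, beside 33.6% of all genes that were higher and 34.9% that were lower. Against euploid, the libraries labelled Ts65Dn;Brwd1+/- were higher for 6 genes, lower for 1 and overlapping for Gad2 and Reln, beside 22.3% and 23.6% of all genes that were higher and lower. The median log2 fold change of the 9 genes was -1.68, 2.06 and 0.41 in these comparisons, and the median over all genes was 0.04, 0.00 and -0.02. Since the genes were chosen with these comparisons known, nothing is read from the counts, and since the first 2 comparisons share the Ts65Dn libraries, opposite signs in them are partly built in.

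**Figure D2:**
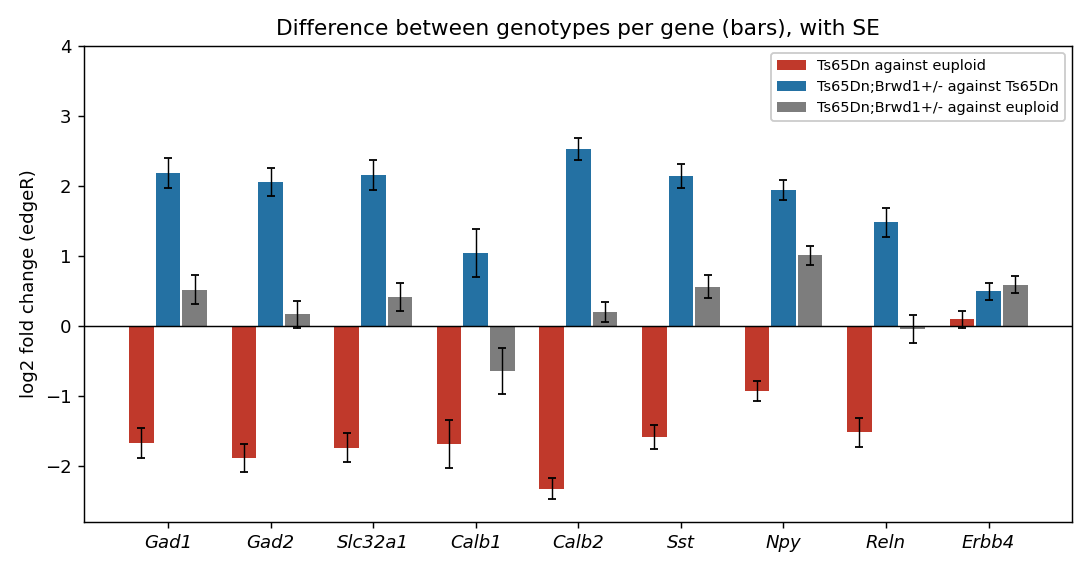
Log2 fold change (vertical axis, edgeR fit over all 9 libraries) of each gene in 3 comparisons of genotypes (bars), with its SE. The bars for Ts65Dn against euploid reach from -2.33 (Calb2) to 0.09 (Erbb4), those for Ts65Dn;Brwd1+/- against Ts65Dn from 0.49 (Erbb4) to 2.52 (Calb2), and those for Ts65Dn;Brwd1+/- against euploid from -0.64 (Calb1) to 1.01 (Npy).

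To compare levels between genes, CPM was divided by the length of each gene's exons in kb (RPKM). In euploid cultures the order was Sst at 73.4 RPKM (SD 3.71, n = 3), Slc32a1 at 44.2, Calb2 at 31.4, Npy at 25.0, Gad1 at 23.3, Gad2 at 15.7, Reln at 6.83, Erbb4 at 6.12 and Calb1 at 5.65. Neighbours overlapped for Npy and Gad1, for Reln and Erbb4, and for Erbb4 and Calb1. In Ts65Dn the order was Sst at 24.5 RPKM (SD 6.64, n = 3), Slc32a1 at 13.2, Npy at 13.1, Gad1 at 7.29, Erbb4 at 6.52, Calb2 at 6.24, Gad2 at 4.22, Reln at 2.38 and Calb1 at 1.75, and only Sst from Slc32a1 and Npy from Gad1 were separate from their neighbour below. Calb2 thus went from the third to the sixth place and Erbb4 from the eighth to the fifth. In the libraries labelled Ts65Dn;Brwd1+/-, Sst at 108 RPKM (SD 7.67, n = 3), Slc32a1 at 58.9 and Npy at 50.2 led, and Npy overlapped Slc32a1. Calb1 was lowest in every genotype.

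The genes whose pattern over the 9 libraries was closest to each member were found as the smallest root mean square difference in log2 CPM, with each gene centred on its mean. Gad1, Sst and Slc32a1 were near each other, with 0.104 between Gad1 and Sst, 0.139 between Sst and Slc32a1 and 0.151 between Gad1 and Slc32a1. The 3 closest to Gad1 were Sst, Rgs8 and Slc32a1, those closest to Gad2 included Cntnap3 and Gad1, and those closest to Sst were Rgs8 (0.0818), Gad1 and Lhx6 (0.126), the last a transcription factor of interneurons from the medial ganglionic eminence. Slc32a1 was followed by Cpne6, Rasgrf1 and Cpne4, Calb2 by genes that included Syt13 and Htr2a, Calb1 by Pgm2l1, Edil3 and Gjd2, Reln by Pnmal1, Dgkb and Gng2, and Npy by Robo2, Kcnh8 and Drd1. No other member was among the closest 3 of these 5 genes. Erbb4 stood apart from the 8 others, at 0.639 (Npy) to 1.11 (Calb2), and its closest genes were Rnaseh2b (0.0696), Mbtd1 and G2e3.

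Genes of neurons in general were also lower in the Ts65Dn libraries. Of 12 pan-neuronal genes, 10 fell in Ts65Dn against euploid and 2 did not pass the test (median log2 fold change -1.21) and 10 rose between the trisomic genotypes (median 1.05). These counts stand beside 21.1% of all tested genes that were lower and 25.6% that were higher in the first comparison, and 27.6% that were higher and 30.5% lower in the second. The summed level of the list was 4315 to 5315 CPM in euploid, 1153 to 2906 CPM in Ts65Dn and 4480 to 5718 CPM in the libraries labelled Ts65Dn;Brwd1+/-. Glutamatergic markers moved likewise, with 8 of 10 lower in Ts65Dn (median -1.28) and 7 of 10 higher between the trisomic genotypes (median 1.06). The edgeR fit was repeated with each library scaled to its mean log2 CPM over the pan-neuronal list. In that fit the log2 fold changes of Gad1, Gad2, Slc32a1, Calb1, Calb2, Sst and Reln in Ts65Dn against euploid lay between -0.41 (Reln) and -1.17 (Calb2). Overlap of libraries was read from log2 CPM less the pan-neuronal mean of the library. On this scale Ts65Dn lay below euploid for the 6 of these genes other than Sst. It overlapped euploid for Sst and Npy, and lay above it for Erbb4. Npy changed sign to 0.27 and Erbb4 went from 0.09 to 1.43 in the scaled fit. Both values rest much on Ts65Dn replicate 3. Relative to the pan-neuronal mean, Npy stood at -4.29, -4.15 and -3.24 in Ts65Dn replicates 1 to 3, and at -4.22, -4.37 and -3.77 in euploid. Erbb4 stood at -1.07, -0.81 and 0.55 in Ts65Dn and at -1.52, -2.05 and -1.57 in euploid. Between the trisomic genotypes, 7 genes had mean differences of 0.33 (Reln) to 1.34 (Calb2) on this scale, and Calb1 was at 0.04. Erbb4 changed sign to -0.87, which again rests much on Ts65Dn replicate 3 (0.55). Its Ts65Dn;Brwd1+/- values of -1.35, -0.96 and -1.12 overlapped those of Ts65Dn replicates 1 and 2 (-1.07 and -0.81). The libraries did not overlap for 5 genes (Gad1, Gad2, Slc32a1, Calb2 and Sst) and overlapped for the other 4 (Calb1, Npy, Reln and Erbb4). The share of all genes that separate on this scale was not computed, and the genes were chosen on these data. Nothing is therefore read from the counts on this scale.

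The balance between GABA genes and glutamatergic markers was closer. The mean log2 CPM of Gad1, Gad2 and Slc32a1 exceeded that of the glutamatergic list by 1.19, 0.90 and 1.31 in the euploid libraries, by 0.50, 0.52 and 0.92 in the Ts65Dn libraries and by 1.51, 1.82 and 1.91 in the libraries labelled Ts65Dn;Brwd1+/-. Euploid and Ts65Dn touched here, at 0.90 and 0.92, and Ts65Dn replicate 3, lowest in both lists, was the library that did so. Taken by like replicate number, Ts65Dn was lower than euploid in 3 of 3 pairs. That pairing was a hint from these same data that the labels do not state, so the pairs are only a description. The libraries labelled Ts65Dn;Brwd1+/- lay above all others.

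**Figure D3:**
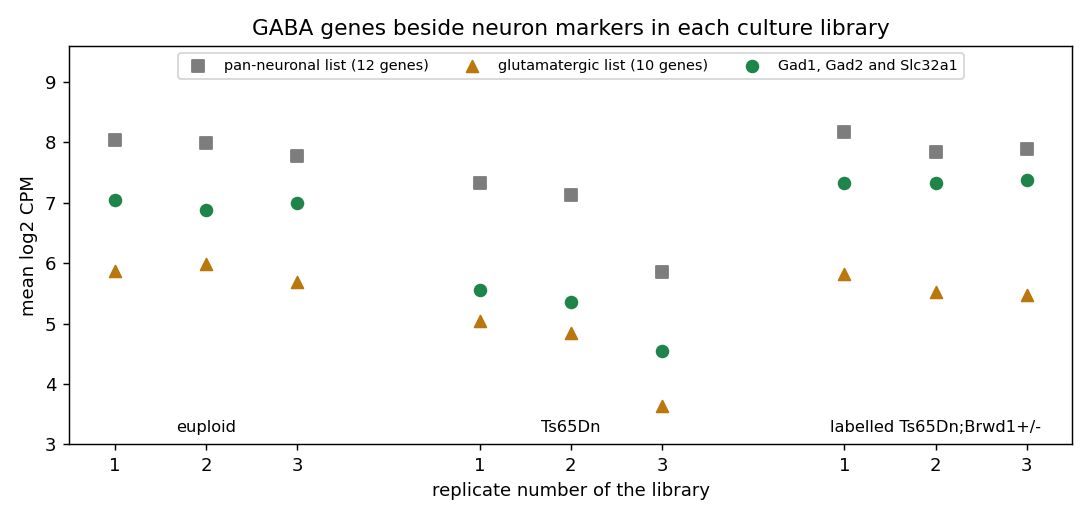
Mean log2 CPM (vertical axis) of Gad1, Gad2 and Slc32a1 (circles), of 12 pan-neuronal genes (squares) and of 10 glutamatergic genes (triangles) in each culture library (horizontal axis, replicate number within genotype). All 3 are lower in Ts65Dn, most so in replicate 3, and the gap between circles and triangles is widest in the libraries labelled Ts65Dn;Brwd1+/-.

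Markers of other cells and regions moved with genotype too, and their part in the levels of the 9 genes was not tested. GABAergic neurons of diencephalon and midbrain were represented by 8 genes, of which 5 were tested. The shares of all tested genes given above for the first 2 comparisons, and 14% higher and 15.2% lower in the libraries labelled Ts65Dn;Brwd1+/- against euploid, stand beside each count of markers, and a share near them is no result about a list. Of the 5 genes, 3 rose (Pax7, Otx2 and Gata2) and Tal1 fell in Ts65Dn against euploid. Pax7 passed the filter only through the Ts65Dn libraries, where it is high, so its values are a description and its call is no support. The summed level was 13.8 to 18.1 CPM in euploid, 98.1 to 125 CPM in Ts65Dn and 17.4 to 23.1 CPM in the libraries labelled Ts65Dn;Brwd1+/-. In Ts65Dn, Otx2 held a mean of 63.0 CPM of it, Gata2 25.8 and Pax7 19.5, while Tal1 held 0.896 and Gata3 0.467. The sum is therefore no measure of GABAergic neurons. Pax7, a gene of dorsal midbrain and cerebellum, had 0, 3 and 0 counts in euploid, 381, 391 and 538 in Ts65Dn and 1, 1 and 2 in the libraries labelled Ts65Dn;Brwd1+/-. Otx2, a gene of forebrain and midbrain patterning, was at 3.16, 3.95 and 3.96 CPM, 58.4, 60.8 and 69.9 CPM, and 8.43, 13.3 and 12.1 CPM in the same order. Pax7 was thus nearly absent outside the Ts65Dn libraries, the same libraries in which 8 of the 9 genes were lowest. Single genes of the marker lists were picked after their values were seen.

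The libraries labelled Ts65Dn;Brwd1+/- differed from both other genotypes in markers of the ventral forebrain, where interneurons arise. Of 13 interneuron lineage factors, 8 fell and 1 rose in Ts65Dn against euploid, 10 rose and 2 fell between the trisomic genotypes, and 9 rose and 1 fell in the libraries labelled Ts65Dn;Brwd1+/- against euploid. The summed level of that list was 431 to 479 CPM, 380 to 432 CPM and 554 to 576 CPM in euploid, Ts65Dn and Ts65Dn;Brwd1+/- libraries. Lhx8 had 0, 0 and 3 counts in euploid, 0 in each Ts65Dn library and 13, 11 and 19 in the libraries labelled Ts65Dn;Brwd1+/-. It passed the filter only through the last, so its test of Ts65Dn against euploid (adjusted p = 0.166) had too few counts to decide. Nkx2-1, the master factor of the medial ganglionic eminence, was at 2.14, 2.50 and 2.73 CPM in euploid, 0.122, 0.346 and 0.574 CPM in Ts65Dn, and a mean of 12.3 CPM (SD 0.506, n = 3) in the libraries labelled Ts65Dn;Brwd1+/-, where it was higher than in euploid by 2.32 (SE 0.20, adjusted p = 3.25e-05). Lhx6, which acts after Nkx2-1 and is needed for Sst interneurons, fell in Ts65Dn by 1.61 (SE 0.14, adjusted p = 2.69e-05). Striatal projection neurons, which are GABAergic as well and make Gad1, were represented by 8 genes, of which 1 fell in Ts65Dn against euploid and 6 were higher in the libraries labelled Ts65Dn;Brwd1+/- than in either other genotype (summed level 58.5 to 66.2, 33.8 to 66.4 and 138 to 142 CPM).

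Among the remaining lists, oligodendrocyte lineage genes summed to 125 to 146, 141 to 170 and 278 to 327 CPM and dividing-cell genes to 241 to 258, 329 to 380 and 574 to 582 CPM in euploid, Ts65Dn and Ts65Dn;Brwd1+/- libraries. All 8 dividing-cell genes rose in Ts65Dn against euploid, while of 7 tested oligodendrocyte genes 1 rose, 1 (Mog) fell by 0.95 (SE 0.23, adjusted p = 0.00693) and 5 did not pass. Fibroblast and meningeal genes summed to 374 to 478, 821 to 1361 and 250 to 305 CPM, with 5 of 8 higher and 3 lower in Ts65Dn. Astrocyte genes summed to 2833 to 3580, 3354 to 3926 and 3247 to 3755 CPM, with 4 of 8 higher and 2 lower. Microglial genes summed to 7.28 to 12.6, 3.56 to 5.27 and 1.12 to 1.74 CPM, with 2 of 4 tested genes lower in Ts65Dn than in euploid and 4 of 4 lower in the libraries labelled Ts65Dn;Brwd1+/- than in euploid. Cajal-Retzius genes, which bear on Reln, summed to 10.9 to 13.6, 12.5 to 17.2 and 5.62 to 7.13 CPM, most of it from Trp73 (adjusted p = 0.115 in Ts65Dn against euploid). In that comparison Nhlh2 fell by 1.91 (SE 0.35, adjusted p = 0.00181), Ebf3 rose by 1.02 (SE 0.28, adjusted p = 0.013), and Lhx5, at 0 to 5 counts per library, was not tested.

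Beyond the 9 genes, 73 genes of 6 pathway lists were examined, of which 66 passed the filter on low counts. The lists were drawn up by role with earlier results of these data known, so their counts are a description. In Ts65Dn against euploid 37 of these 66 fell and 13 rose, beside 21.1% and 25.6% of all 17173 genes tested (adjusted p under 0.05 in the quasi-likelihood test of edgeR). Between the trisomic genotypes 35 rose and 17 fell (Ts65Dn;Brwd1+/- against Ts65Dn), beside 27.6% and 30.5% of all genes. The libraries labelled Ts65Dn;Brwd1+/- differed from euploid in 6 genes that were higher and 12 that were lower, beside 14% and 15.2% of all genes, and this count of 18 went down to 10 without euploid replicate 3. The median log2 fold change over the 66 genes was -0.53, 0.48 and -0.07. These shares of all genes also stand beside the counts of each single list that follows. A count near them is no result about a list.

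GABA handling held the carriers and enzymes that clear and recycle GABA. In Ts65Dn, 10 of 14 tested genes fell and 4 rose (median -0.51), and between the trisomic genotypes 7 rose, 4 fell and 3 did not pass (median 0.48). Slc6a11, the astrocytic carrier GAT3, fell by 1.50 (SE 0.22, adjusted p = 5.93e-04) and rose by 2.22 (SE 0.23, adjusted p = 2.34e-05). Abat, the GABA-degrading transaminase, moved the other way, with a rise of 0.36 (SE 0.08, adjusted p = 0.00555) and a fall of -0.41 (SE 0.08, adjusted p = 0.00176). Slc6a13, the carrier GAT2 of meninges, had 14, 35 and 10 counts in euploid, 0, 0 and 1 in Ts65Dn and 4, 0 and 4 in the libraries labelled Ts65Dn;Brwd1+/-, too few for a fold change to be read. It passed the filter only through the euploid libraries. Its place among the 10 genes that fell here, and the 37 over all lists, is therefore no support.

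Other interneuron subtype genes were mostly lower, with 10 of 16 down, 3 up and 3 not past the test in Ts65Dn (median -1.52), and 11 up, 3 down and 2 not past between the trisomic genotypes (median 1.40). Ndnf, a marker of neurogliaform cells in layer I, fell by 2.21 (SE 0.22, adjusted p = 5.37e-05) and rose by 2.03 (SE 0.22, adjusted p = 3.36e-05). Vip, the peptide of interneurons that inhibit other interneurons, was at 2.23, 1.14 and 0.911 CPM in euploid, 0.653, 0.198 and 0 CPM in Ts65Dn and 3.12, 2.56 and 2.13 CPM in the libraries labelled Ts65Dn;Brwd1+/-. Its fall of -2.24 (adjusted p = 0.0176) was lost without euploid replicate 1 (adjusted p = 0.0733) and without Ts65Dn replicate 2 (adjusted p = 0.0535), and its size ran from -1.66 without Ts65Dn replicate 3 to -3.84 without Ts65Dn replicate 1. Pvalb, the marker of fast-spiking basket cells, went against the list, from 1.60, 1.10 and 1.37 CPM in euploid up to 3.63, 3.01 and 3.93 CPM in Ts65Dn and down to 0.268, 0.612 and 0.560 CPM in the libraries labelled Ts65Dn;Brwd1+/- (adjusted p = 8.84e-04 and 1.21e-05). Parvalbumin appears late in cortical interneurons, and these levels were low in all cultures.

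Reelin acts on receptors that signal through kinases and adaptors. Of 10 such genes, 4 fell, 1 rose and 5 did not pass in Ts65Dn (median -0.14), and 5 rose, 2 fell and 3 did not pass between the trisomic genotypes (median 0.24). The 2 reelin receptors moved apart. Vldlr fell by 0.99 (SE 0.19, adjusted p = 0.0025) and rose by 1.12 (SE 0.19, adjusted p = 6.92e-04), whereas Lrp8, the receptor ApoER2, rose by 0.42 (SE 0.07, adjusted p = 0.00147) and fell by 0.26 (SE 0.07, adjusted p = 0.0115), the latter lost with no count filter (adjusted p = 0.0768) and without replicate 2 (adjusted p = 0.0578) or 3 (adjusted p = 0.06) of the libraries labelled Ts65Dn;Brwd1+/-. Fyn, the kinase that phosphorylates the adaptor DAB1, fell by 0.54 (SE 0.10, adjusted p = 0.00194) and rose by 0.91 (SE 0.10, adjusted p = 3.91e-05).

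The ligands of ERBB4 did not move as one group. In the neuregulin and ErbB list 3 of 10 tested genes rose, 2 fell and 5 did not pass in Ts65Dn (median 0.09), and 6 fell and 2 rose between the trisomic genotypes (median -0.78). Of all genes, 25.6% were higher and 21.1% lower in the first comparison, and 27.6% higher and 30.5% lower in the second. The first count is near these shares, so nothing is read from it. The list also holds genes that are not ligands, such as Erbb2, Adam17 and Dlg4. Nrg3, a neuregulin of cortical projection neurons, was at 39.7, 41.1 and 30.6 CPM in euploid, 15.2, 15.7 and 6.05 CPM in Ts65Dn, and 42.9, 29.7 and 30.7 CPM in the libraries labelled Ts65Dn;Brwd1+/- (adjusted p = 0.00209 and 0.00179). Nrg1 did not pass in Ts65Dn against euploid (-0.18, SE 0.14, adjusted p = 0.313) and fell in the libraries labelled Ts65Dn;Brwd1+/- by 0.87 (SE 0.15, adjusted p = 6.1e-04) against Ts65Dn. Nrg2 rose by 0.49 (SE 0.11, adjusted p = 0.00534) and fell by 1.05 (SE 0.11, adjusted p = 3.12e-05), and Nrg4, at 0.927 to 1.79 CPM, passed neither test (adjusted p = 0.162 and 0.133). Hbegf, a ligand shared by ERBB4 and the EGF receptor, rose by 1.02 (SE 0.12, adjusted p = 1.44e-04) and fell by 1.76 (SE 0.12, adjusted p = 2.49e-06). Against Ts65Dn, Erbb4 itself thus stood higher in the libraries labelled Ts65Dn;Brwd1+/-, as did Nrg3 (by 1.49), while Nrg1, Nrg2 and Hbegf stood lower. Scaled to the pan-neuronal list, Erbb4 was instead at -0.87 in that comparison, a value that rests much on Ts65Dn replicate 3.

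Receptors and processing enzymes of the peptides went in both directions. Of 10 tested genes 5 fell, 2 rose and 3 did not pass in Ts65Dn (median -0.95), and 4 rose, 2 fell and 4 did not pass between the trisomic genotypes (median 0.62). Npy2r, a receptor of neuropeptide Y, fell by 2.29 (SE 0.31, adjusted p = 3.93e-04) and rose by 2.45 (SE 0.31, adjusted p = 9.56e-05), and Sstr1, a somatostatin receptor, fell by 1.61 (SE 0.34, adjusted p = 0.00372) and rose by 1.77 (SE 0.34, adjusted p = 0.00134). Cpe, the carboxypeptidase that trims peptide precursors and the most abundant gene of the list, went the other way, with a rise of 0.49 (adjusted p = 0.00236) and a fall of -0.79 (adjusted p = 6.65e-05), and is named after its values were seen. The summed level of the list was 3345 to 3682 CPM in euploid, 4468 to 4789 CPM in Ts65Dn and 2733 to 2913 CPM in the libraries labelled Ts65Dn;Brwd1+/-. On the receiving side of the synapse, all 6 inhibitory synapse genes fell in Ts65Dn (median -0.75) and all 6 rose between the trisomic genotypes (median 0.95). Slitrk3, an adhesion protein of inhibitory synapses, fell by 1.83 (SE 0.30, adjusted p = 0.00101) and rose by 1.93 (SE 0.30, adjusted p = 3.64e-04), and Iqsec3, a partner of the scaffold gephyrin, fell by 1.37 (SE 0.29, adjusted p = 0.00369) and rose by 1.60 (SE 0.29, adjusted p = 9.35e-04).

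**Figure D4:**
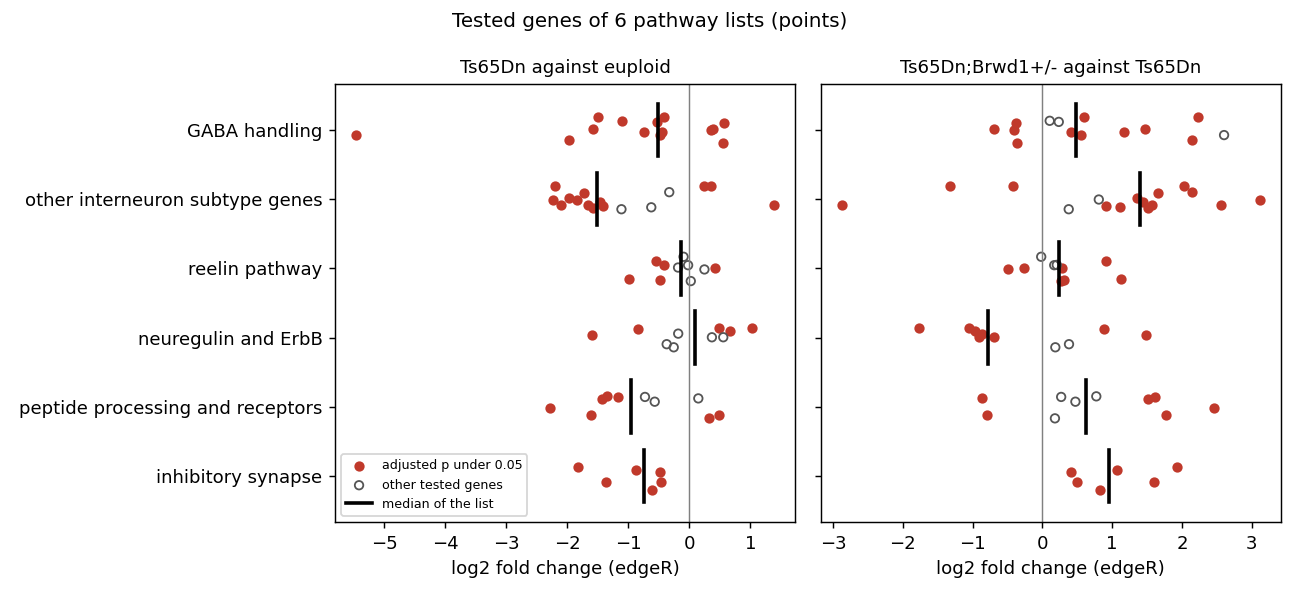
Log2 fold change (horizontal axes, edgeR fit) of the tested genes of 6 pathway lists (points, jittered vertically) in Ts65Dn against euploid (left) and Ts65Dn;Brwd1+/- against Ts65Dn (right), filled where the adjusted p was under 0.05, with the median of each list as a bar. All 6 inhibitory synapse genes lie below 0 on the left and above 0 on the right, and the neuregulin and ErbB list has its median at 0.09 and -0.78. The point farthest left is Slc6a13, which had 1 count in the Ts65Dn libraries.

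In adult hippocampus, the SMARCA2/4 lists named none of the 9 genes in any genotype, and no SMARCA2/4 peak lay within 10000 bp of any of them, whatever gene it named. The euploid list held 22667 peaks and named 38.6% of the 17173 genes tested in culture, whereas the Ts65Dn list (1290 peaks) named 4.14% and the Ts65Dn;Brwd1+/- list (1873 peaks) named 4.89%. Of the 73 pathway genes, the euploid list named 37, among them Abat, Vldlr, Lrp8 and Nrg3, the Ts65Dn list 5 and the Ts65Dn;Brwd1+/- list 9. With 1 list per genotype there is no replicate error, and a difference in the number of peaks between lists reaches every gene in them.

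The ATAC lists of euploid, Ts65Dn and Ts65Dn;Brwd1+/- named 2, 5 and 4 of the 9 genes, beside 53.3%, 66% and 65.6% of the genes tested in culture. With 9 genes, nothing is read from these counts. The lists differed in length (15521, 29195 and 30244 peaks), so a gene named in a trisomic list and not in the euploid one may have missed a threshold there. Calb1 had a promoter peak in all 3 lists, at fold enrichments of 5.76, 4.84 and 4.61, with a second one in Ts65Dn (3.30), and Calb2 had a promoter peak at chr8:110168143-110168414 in Ts65Dn (3.55) and chr8:110168143-110168416 in Ts65Dn;Brwd1+/- (3.12). In Reln a further gene-body peak, at chr5:21983117-21983427, was in the Ts65Dn list alone (3.97). All member peaks of the euploid list were shared with both trisomic lists by at least 1 bp, and 4 of the 7 member peaks in Ts65Dn were shared with Ts65Dn;Brwd1+/-, which were all 4 in that list. Gad2, Slc32a1, Sst and Erbb4 were named in no list.

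**Figure D5:**
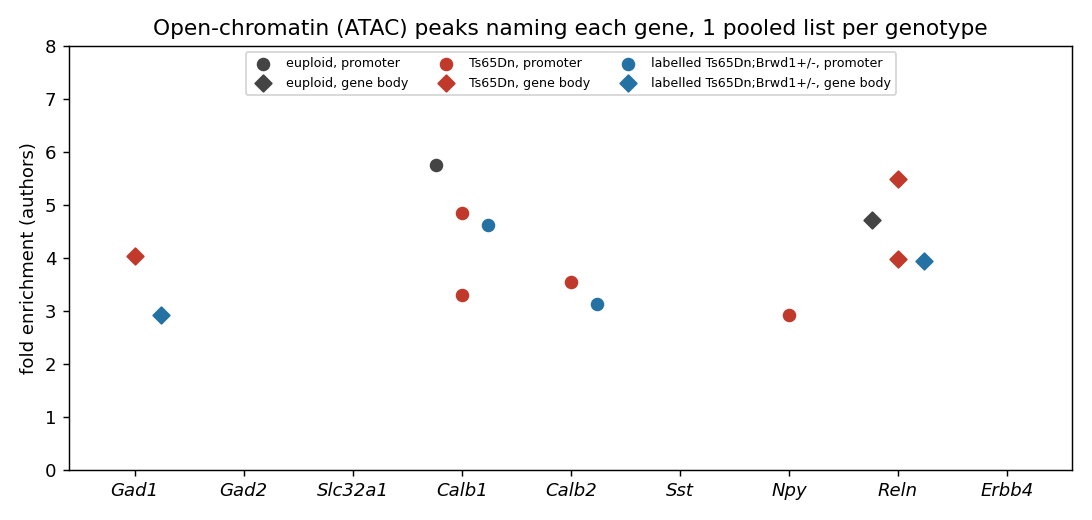
Fold enrichment of the ATAC peaks that name each of the 9 genes (vertical axis, as given by the authors) in the pooled list of each genotype, as circles for peaks at a promoter and diamonds for peaks in the gene body. Calb1 and Reln have a peak in every list, Gad1 and Calb2 in the 2 trisomic lists and Npy in the Ts65Dn list alone, and 4 genes have none.

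The promoter windows of 7 members (RefSeq, GRCm38.p6) were searched on both strands for the cyclic-AMP element TGACGTCA, the TATA box TATAAA, the CCAAT box, the GC box GGGCGG, the homeodomain core TAATTA (as bound by DLX factors) and the E-box CAGCTG. Calb1 and Calb2 were not searched. CCAAT was in the windows of Gad2 and Npy and in 37.4% of all windows, GGGCGG in those of Gad1, Reln and Npy and in 35.7%, and TATAAA in that of Gad1 and in 13.6%. TAATTA (5.29% of all windows) and CAGCTG (16.3%) were in none of the 7, and the windows of Slc32a1 and Erbb4 held none of the 6. These motifs do not overlap each other in the windows shown, and none was common to the members that were lower in Ts65Dn.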

How the data were processed

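Members and gene lists were chosen with earlier results of these data known. For each culture library the authors deposited raw counts per Ensembl gene. The sources name HISAT2 alignment to mm10 (GRCm38) and featureCounts, whereas each file ends in 5 summary lines of the kind htseq-count writes, which held 37.5 to 40.0% of counts and were left out here. The strand setting is not given in the sources used here, so reads of overlapping or antisense genes cannot be told apart. For SMARCA2/4 and ATAC-seq, the authors deposited MACS peaks with a fold enrichment (ratio) and q-value, as 1 list per genotype, in which the way replicates were joined is not stated. Peaks were assigned to a member where the file named it.

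Counts were filtered (filterByExpr, 17173 genes kept), scaled by TMM and fitted over all 9 libraries with edgeR 4.0.16 in R 4.3.3 (quasi-likelihood test, Benjamini-Hochberg over all genes tested, threshold 0.05), after testing the script on simulated data. Levels per length used the GENCODE exon lengths. Members carry no test. Named pathway genes were, per list and contrast, up to 2 with the largest change past the threshold in Ts65Dn against euploid or Ts65Dn;Brwd1+/- against Ts65Dn, plus Lrp8, Vldlr, Nrg1 to Nrg4 and Abat, and 1 further gene that meets the rule is not reported here. The 3 genes most like each member were chosen by root mean square difference over the 9 libraries. Alternatives were DESeq2 1.42.0 (Wald test and size factors), library totals only, other count filters, a threshold of 0.1, fits of 6 libraries, a replicate block, leaving out each library, scaling to pan-neuronal genes, and stricter peak thresholds and overlap. Pairing was checked as the correlation of deviations from the group means. All 3 euploid and Ts65Dn pairs of like replicate number exceeded 0.1 (0.13 to 0.26, against -0.21 to 0.02 for unlike numbers), so the numbers were taken to pair these 2 genotypes, a hint from the data that the labels do not state, whereas only 2 of 3 and 1 of 3 pairs did so between Ts65Dn;Brwd1+/- and Ts65Dn or euploid. Promoter sequences came from RefSeq (GRCm38.p6) and matched 7 of 9 members, and peak sequences came from the same build.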

Additional observations from a re-analysis of the deposited data

How the results depend on the processing

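With each library scaled to the pan-neuronal genes, Npy in Ts65Dn against euploid reversed to 0.27 and Erbb4 in Ts65Dn;Brwd1+/- against Ts65Dn reversed to -0.87 on the log2 scale, which follows from the lower pan-neuronal level of the Ts65Dn libraries. Both reversals rest much on Ts65Dn replicate 3, which had the lowest pan-neuronal mean of all libraries (5.86 log2 CPM). Among the other differences of the 9 genes, 2 near 0 crossed it without 1 euploid library, Reln in Ts65Dn;Brwd1+/- against euploid (0.0036 without replicate 1) and Erbb4 in Ts65Dn against euploid (-0.04 without replicate 2), and the rest kept their sign under every setting tried. Pathway genes past the threshold numbered 46 to 54 in Ts65Dn against euploid (50 with all libraries), 48 to 54 in Ts65Dn;Brwd1+/- against Ts65Dn (52) and 10 to 25 in Ts65Dn;Brwd1+/- against euploid (18) when each library was left out in turn, and the value of 10 arose without euploid replicate 3, where the cause was not tested. With a fold enrichment of at least 5, the ATAC lists of euploid, Ts65Dn and Ts65Dn;Brwd1+/- named 1, 1 and 0 members.

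With the replicate block over all 9 libraries, 55, 55 and 19 pathway genes passed in the 3 comparisons. With the replicate block in the 6 euploid and Ts65Dn libraries alone, an alternative chosen after seeing the data, 53 passed. Neither changed the call of a named pathway gene. For the comparisons with Ts65Dn;Brwd1+/-, whose samples share only a number, correlations of deviations between libraries of like number ran from -0.16 to 0.28, and over all comparisons a library correlated best with its own number in 12 of 18 cases. Depth limits genes with few counts, such as Slc6a13 and, in Ts65Dn, Vip, and with 1 peak list per genotype no spread is known for peaks.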
